A study of Homo sapiens with 4 samples.

Results

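The NF-kB subunits and their feedback inhibitors were followed in 4 RNA libraries of U87 cells, an established human glioblastoma line. The 10 genes were chosen by name, as the rows whose transcripts belong to NFKB1, NFKB2, REL, RELA, RELB, NFKBIA, NFKBIE, NFKBIZ, TNFAIP3 or BIRC3 in GENCODE 29, out of 22031 genes in all. They hold 64 of the 90643 transcripts that matched this annotation, and all 10 passed the filter on low values. In 2 libraries the cells had received a mimic of tRF-3009a, a tRNA-derived small RNA of the class cut from the 3' part of mature tRNAs, and in 2 libraries the control oligonucleotide ssGL2, whose name refers to the GL2 form of firefly luciferase. Every library came from cells of this 1 line given 50 nM of oligonucleotide by lipofection for 48 h, and none of the 4 was untransfected. In each group the libraries carry the numbers 1 and 2. The labels say neither what a number stands for nor whether the libraries came from separate cultures, so the p-values measure the spread between these libraries, which may be technical.

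NF-kB is a family of transcription factors that act as dimers. NFKB1 and NFKB2 encode precursors that are processed into DNA-binding subunits without an activation domain, while REL, RELA and RELB encode the subunits that carry one. In resting cells IkB proteins hold the dimers in the cytoplasm, and kinases of the IKK complex mark IkB for degradation after a signal such as interleukin 1 or tumour necrosis factor. Several inhibitors of the pathway are themselves NF-kB target genes, which makes a feedback loop. In glioblastoma, NF-kB activity is known to accompany the mesenchymal state.

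Depth, as whole reads recovered from the table, lay between 28860788 and 33848402 per library. Deviations from the group means correlated between libraries with the same number (r = 0.745 across genes, which are not independent), so values are given by library. All 8 cell-cycle genes of a fixed list were over 2-fold lower in number 2, with a median log2 difference of -1.63, and all 8 amino acid stress genes were over 2-fold higher, with a median of 3.64. The 7 markers of U87 glioma cells, VIM and CD44 among them, summed to 333598 and 183499 in mimic 1 and 2, against 371246 and 191870 in control 1 and 2. Of these 7 markers 4 were over 2-fold lower in number 2 and none was higher, with a median log2 difference of -1.05. Of the genes known to be deleted in this line, CDKN2A had values from 0 to 11.2 and MTAP from 23.9 to 41.5. Of 7 microglia and macrophage markers, AIF1 and TYROBP had no row, PTPRC, ITGAM and CD14 were at 6.72 or lower, and the summed level was 8279 and 7301 in the mimic libraries, against 10676 and 8429 in the controls. Nearly all of that sum was CD68, a lysosomal protein gene with values from 7238 to 10220. CSF1R, a further marker of the list, had 340 and 52.4 in mimic 1 and 2, against 440 and 53.8 in control 1 and 2. The 2 lymphocyte markers with a row summed to values from 4.48 to 37.4 and the summed endothelial markers from 44.9 to 192, both lower in number 2.

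The promoters of the members are shown first, because NF-kB proteins bind a known 10-base consensus and the feedback genes are textbook targets. RefSeq (GRCh38.p14) gave 13 promoter windows for 8 of the 10 genes, each with the 250 bases before an annotated start site and the 50 bases from it on, 300 bases in all. The NF-kB consensus was searched on both strands, and overlapping matches were each counted. It was present in 9 of the 13 windows, which is 69.2%, against 5.91% of all 35116 windows of that length. By gene, 7 of 8 held it in at least 1 window, against 8.90% of the 11713 tested genes with a window. RELA had no match in either of its windows. RELB and NFKBIE are named only. A match describes letters in a window and does not show that a factor was bound there. The sequences below are printed 5' to 3' on the strand of the gene, with the bases of every match in capitals. Those of the feedback genes NFKBIA, TNFAIP3 and BIRC3 and of the subunit NFKB2 show where the matches lie, and that of RELA shows a window without one.
NFKBIA, chr14:35404700-35404999, minus strand: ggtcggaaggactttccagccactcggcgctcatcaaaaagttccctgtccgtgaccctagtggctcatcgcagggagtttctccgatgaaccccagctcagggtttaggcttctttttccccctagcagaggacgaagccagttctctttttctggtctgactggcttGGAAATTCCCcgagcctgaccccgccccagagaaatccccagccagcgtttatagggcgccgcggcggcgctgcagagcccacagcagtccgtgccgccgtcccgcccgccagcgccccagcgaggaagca
TNFAIP3, chr6:137867009-137867308, plus strand: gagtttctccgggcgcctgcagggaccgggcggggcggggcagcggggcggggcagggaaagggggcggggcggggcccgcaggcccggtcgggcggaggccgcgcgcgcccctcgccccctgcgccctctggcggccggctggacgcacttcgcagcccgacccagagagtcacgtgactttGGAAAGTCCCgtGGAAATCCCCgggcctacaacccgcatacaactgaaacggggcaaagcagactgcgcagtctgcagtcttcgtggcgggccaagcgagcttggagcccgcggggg
BIRC3, chr11:102317234-102317533, plus strand: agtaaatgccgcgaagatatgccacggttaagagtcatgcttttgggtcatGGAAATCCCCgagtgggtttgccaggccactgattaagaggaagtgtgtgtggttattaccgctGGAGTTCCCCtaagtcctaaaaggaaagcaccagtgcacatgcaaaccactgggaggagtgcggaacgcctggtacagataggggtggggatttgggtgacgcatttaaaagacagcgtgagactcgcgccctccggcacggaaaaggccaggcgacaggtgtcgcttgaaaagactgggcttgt
NFKB2, chr10:102395455-102395754, plus strand: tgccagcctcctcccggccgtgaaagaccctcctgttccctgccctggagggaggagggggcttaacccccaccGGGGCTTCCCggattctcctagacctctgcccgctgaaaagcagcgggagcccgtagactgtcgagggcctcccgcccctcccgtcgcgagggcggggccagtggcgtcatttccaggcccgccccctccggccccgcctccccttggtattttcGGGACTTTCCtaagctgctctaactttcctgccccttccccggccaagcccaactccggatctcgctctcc
RELA, chr11:65662867-65663166, minus strand: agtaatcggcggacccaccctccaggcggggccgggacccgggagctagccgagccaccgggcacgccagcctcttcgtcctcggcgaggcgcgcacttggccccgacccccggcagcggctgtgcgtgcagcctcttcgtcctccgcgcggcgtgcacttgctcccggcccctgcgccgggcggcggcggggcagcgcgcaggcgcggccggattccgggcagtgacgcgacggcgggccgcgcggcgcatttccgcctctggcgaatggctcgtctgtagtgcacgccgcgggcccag

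Shorter stretches around the matches are enough for the other members, since they are shown only to compare the matched bases.
NFKB1, chr4:102501300-102501329, plus strand: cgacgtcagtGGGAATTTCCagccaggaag
REL, chr2:60881517-60881546, plus strand: cgtcagccgcGGGAAATTCCCctcccgcca
NFKBIZ, chr3:101827757-101827786, plus strand: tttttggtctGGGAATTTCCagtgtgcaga
NFKBIZ, chr3:101849265-101849294, plus strand: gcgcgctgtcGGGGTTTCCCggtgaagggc

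The same match, GGGAATTTCC, occurred in NFKB1, in the first NFKBIZ window and, on the opposite strand, in NFKBIA and REL. In NFKBIA it lay from 81 to 72 bases before the start site. TNFAIP3 held a pair on the opposite strand, GGGACTTTCC and GGGGATTTCC, with first bases 67 and 55 before the start site, and BIRC3 held GGGGATTTCC and GGGGAACTCC with first bases 199 and 135 before it. Windows differed in how much of the gene's value came from transcripts annotated to start near them, and no start site was measured. Transcripts that start within 50 bases of the window's start site held 95.5% of the summed NFKBIA value, 83.2% of BIRC3, 81.0% of NFKB1 and 73.2% of NFKB2 for the windows shown, but 0.602% of TNFAIP3, whose main transcript begins 185 bases downstream. TNFAIP3-206, with 22.3% of the TNFAIP3 value, begins inside that window but more than 50 bases from its start site. For NFKBIZ the share was 8.43% for the first window shown and 88.1% for the second. In that second window the same bases match on both strands, as GGGGTTTCCC on the gene's own strand and GGGAAACCCC on the opposite one. REL-201, the main REL transcript, begins 53 bases upstream of its window's start site. RELA-202, the main RELA transcript, begins 178 bases upstream of the start site of the window shown.

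**Figure D1:**
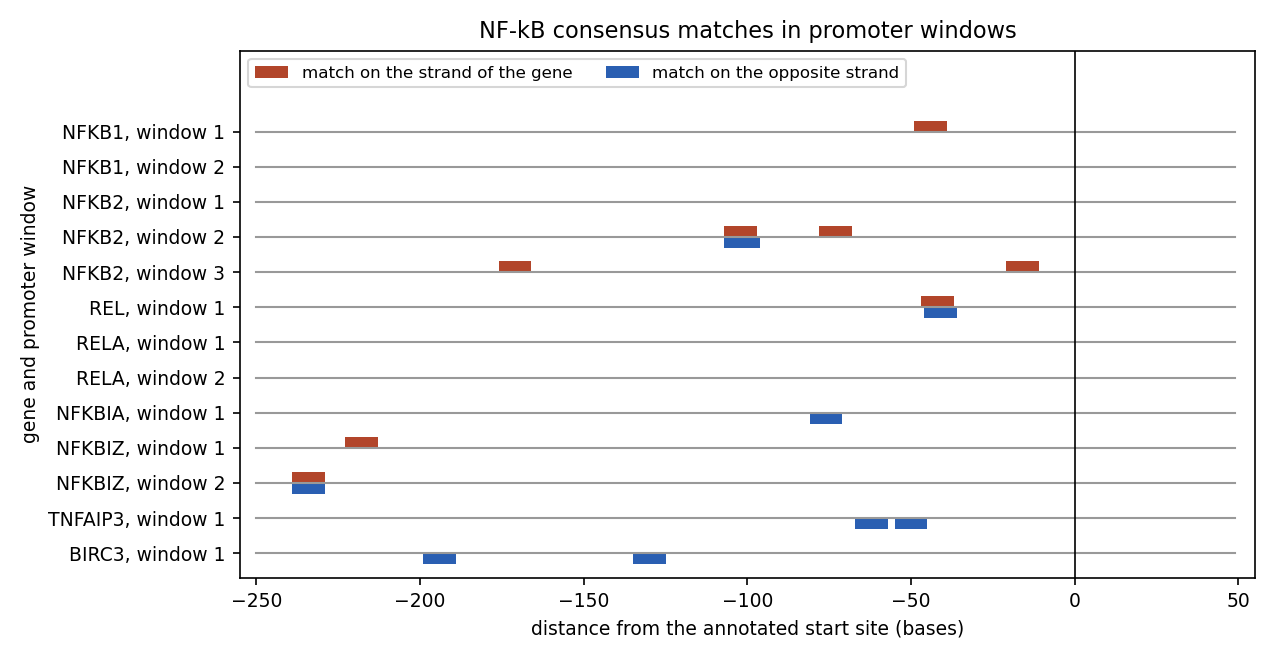
Positions of NF-kB consensus matches in the 13 RefSeq promoter windows of 8 member genes, as distance from the annotated start site in bases, with matches on the gene's strand in red above each line and on the opposite strand in blue below it. Matches appear in 9 windows and in neither RELA window.

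Mimic libraries were set against control libraries to see whether the level of these genes differed with the transfected oligonucleotide. No member passed the test in either direction. On the log2 scale 8 of the 10 were lower on average in the mimic and 2 were higher, with fold changes from -0.28 for RELB to 0.18 for NFKBIZ. Over all genes tested, 8888 were lower and 7647 higher. The median over the members was -0.14, against -0.01 over all 16535 genes tested. With limma, 0 of 10 members were called, against 0.0% of all genes tested, and the smallest adjusted p of any gene tested was 0.99995. With DESeq2 the smallest was 0.067. None of the 10 had an unadjusted p under 0.05 with limma, edgeR or DESeq2, while 26, 35 and 23 of all genes did. These fits have no term for the library number, so their standard errors and p-values take in the difference between numbers. With the number added as a block, limma called 117 genes and edgeR 91, none of them a member. The mimic and control values overlapped for all 10 members, so 0 were separated, while 6.18% of all genes had both mimic libraries above both controls and 6.21% had both below. Values are the authors' normalized counts, summed over the transcripts of a gene, and a log2 fold change is of value + 1. In RNA from whole cultures, a change in the number of cells that make a transcript and a change in RNA per cell cannot be told apart.

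**Figure D2:**
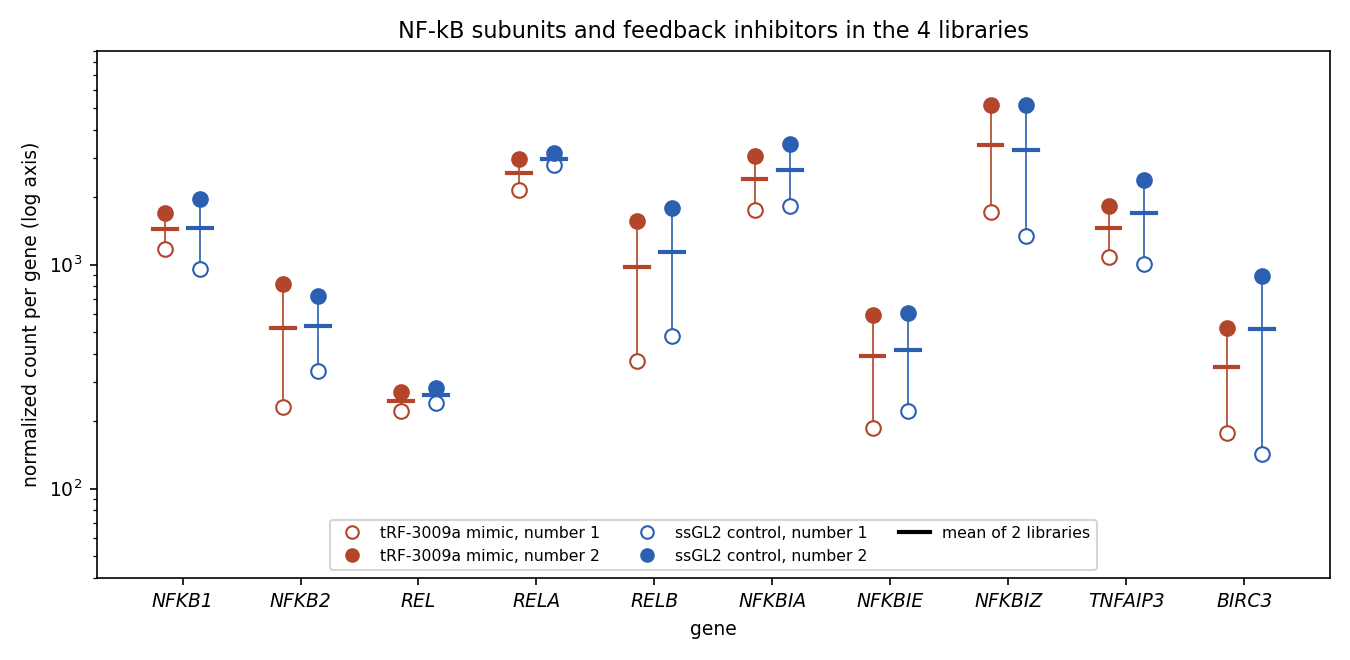
Normalized count per gene on a log axis for the 10 members in each library, with tRF-3009a mimic in red to the left of ssGL2 control in blue, number 1 as open circles, number 2 as filled circles and bars at the mean of the 2 libraries. In every gene both filled circles lie above both open ones, and the groups overlap.

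Among the subunits, RELA, which encodes the main activating subunit of the canonical pathway (chromosome 11, 65653596 to 65663094, GRCh38), had 2158 and 2945 in mimic 1 and 2, against 2785 and 3142 in control 1 and 2. The lowest of the 4 libraries was mimic 1. Its log2 fold change was -0.23 ± 0.25 (SE, n = 2 per group), with -0.37 within number 1 and -0.09 within number 2. RELB, the activating subunit of the non-canonical pathway (chromosome 19, 45001430 to 45038198), had 371 and 1569 in mimic 1 and 2, against 478 and 1792 in control 1 and 2. Its log2 fold change was -0.28 ± 0.98, and the number 2 libraries were far above the number 1 libraries in both groups. REL, the subunit best known from lymphocytes (chromosome 2, 60881521 to 60931610), had 223 and 270 in mimic 1 and 2, against 241 and 281 in control 1 and 2, and a log2 fold change of -0.09 ± 0.28. All 4 REL values lay within a narrow range.

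The precursor genes went opposite ways in the pairs of libraries with the same number. NFKB1, the precursor of the subunit that pairs with RELA (chromosome 4, 102501329 to 102617302), had 1173 and 1699 in mimic 1 and 2, against 953 and 1971 in control 1 and 2. The mimic was higher within number 1, by 0.30 on the log2 scale, and lower within number 2, at -0.21, for a log2 fold change of 0.04 ± 0.45. NFKB2, the precursor of the subunit that pairs with RELB (chromosome 10, 102394110 to 102402529), had 230 and 817 in mimic 1 and 2, against 336 and 727 in control 1 and 2. Here the mimic was at -0.54 within number 1 and at 0.17 within number 2, and the log2 fold change was -0.19 ± 0.77.

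Of the IkB genes, NFKBIA, the classical cytoplasmic inhibitor that NF-kB itself induces (chromosome 14, 35401511 to 35404749), had 1748 and 3059 in mimic 1 and 2, against 1824 and 3467 in control 1 and 2. Its log2 fold change was -0.12 ± 0.46, a small difference next to the gap between the libraries of a group. NFKBIE, a further cytoplasmic inhibitor (chromosome 6, 44258166 to 44265788), had 186 and 597 in mimic 1 and 2, against 222 and 607 in control 1 and 2, with a log2 fold change of -0.14 ± 0.79. NFKBIZ, a nuclear IkB protein that helps to activate a subset of target genes (chromosome 3, 101827991 to 101861022), had 1716 and 5128 in mimic 1 and 2, against 1341 and 5134 in control 1 and 2. Its number 2 values were almost equal in mimic and control, and its log2 fold change was 0.18 ± 0.87.

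Like every other member except NFKB2, the ubiquitin enzymes had their highest values in control 2. TNFAIP3, a ubiquitin-editing enzyme that ends signalling upstream of IKK (chromosome 6, 137867188 to 137883312), had 1076 and 1833 in mimic 1 and 2, against 1006 and 2389 in control 1 and 2. The mimic was at 0.10 within number 1 and at -0.38 within number 2, with a log2 fold change of -0.14 ± 0.54. BIRC3, a ubiquitin ligase of the tumour necrosis factor receptor complex (chromosome 11, 102317450 to 102339403), had 177 and 523 in mimic 1 and 2, against 142 and 889 in control 1 and 2. Its differences within the numbers were the widest apart of the members, at 0.31 in number 1 and -0.76 in number 2, and its log2 fold change was -0.23 ± 1.07. On the recovered reads edgeR put BIRC3 at -0.55 and DESeq2 at -0.55, neither called. Within both numbers, 5 of the 10 members had the same sign of mimic minus control, all 5 lower (REL, RELA, RELB, NFKBIA and NFKBIE), against 50.0% of all genes with the same sign.

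Leaving out 1 library put unequal numbers into the groups, and the fold changes then took in the difference between numbers described below. Without control 1 all 10 members were lower in the mimic, from -1.54 for BIRC3 to -0.20 for REL. Without control 2 the mimic was higher for 9 of them, up to 1.14 for NFKBIZ, with RELA at -0.14. Without mimic 1 the range was -0.01 for RELA to 0.97 for NFKBIZ, and without mimic 2 it was -1.31 for RELB to -0.22 for NFKB1 and REL. The sign of the fold change thus depended on which library was left out for 9 members, and for RELA it did not. None of these fits called a member.

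Between the numbers the members differed widely. Of the 16535 genes tested, 8338 were higher in number 2 on average over the groups. All 10 members were higher there within the mimic and within the control, a share not counted over all genes. The difference is a description without a test, since the labels do not say what separates the numbers, and cell-cycle genes, amino acid stress genes and U87 markers differed between the same libraries, whose part in it was not tested. Averaged over the groups, 6 of 10 members were over 2-fold higher in number 2, against 9.39% of all genes, and 0 were over 2-fold lower, against 9.92%. Within both groups separately, 5 of 10 were over 2-fold higher, against 6.79% of all genes. The median log2 difference was 1.24 over the members and 0.01 over all genes tested. All 10 members differed more between numbers than between mimic and control, and the share of all genes that did so was not counted. For RELA the 2 were close, at 0.31 between numbers and -0.23 between mimic and control.

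**Figure D3:**
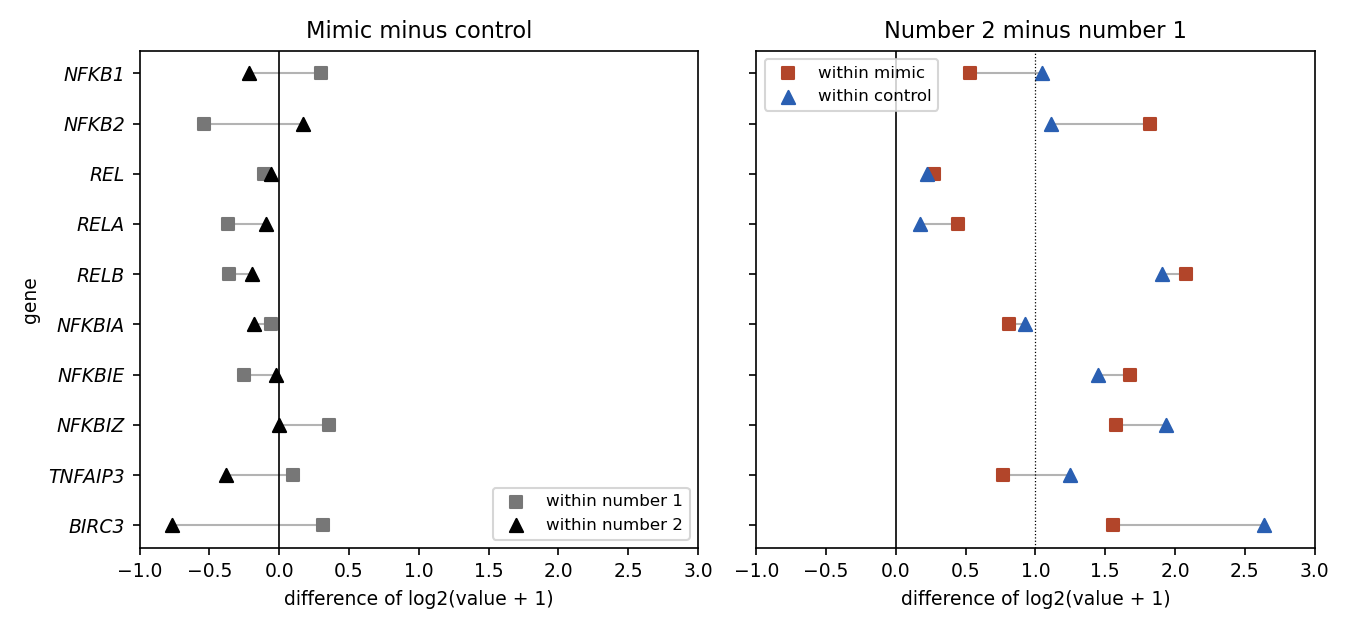
Differences of log2(value + 1) for the 10 members, on the left mimic minus control within number 1 (squares) and within number 2 (triangles), and on the right number 2 minus number 1 within the mimic (squares) and within the control (triangles). The left panel straddles 0, while every point of the right panel is above 0, and the dotted line marks 2-fold.

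The subunits split into 3 levels of difference. RELB averaged 1681 in number 2 and 425 in number 1, a log2 difference of 1.99 that lay at percentile 97.4 of all genes, and NFKB2, its partner in the non-canonical pathway, averaged 772 in number 2 and 283 in number 1, a log2 difference of 1.47. NFKB1 stood between, with 1835 in number 2 and 1063 in number 1 and a log2 difference of 0.79. REL and RELA were nearly level, at 0.25 and 0.31, or percentiles 64.4 and 68.1 of all genes. The activating subunit gene of the canonical pathway, RELA, thus differed little in the libraries where RELB differed 3.97-fold.

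Among the IkB genes and ubiquitin enzymes the largest difference was that of BIRC3. It averaged 706 in number 2 and 160 in number 1, a log2 difference of 2.10. This difference was 1.56 in the mimic and 2.63 in the control. NFKBIZ averaged 5131 in number 2 and 1528 in number 1, with 1.58 in the mimic and 1.94 in the control. NFKBIE averaged 602 in number 2 and 204 in number 1, a log2 difference of 1.56. TNFAIP3, at 1.01, lay at the 2-fold line and passed it within the control (1.25) but not within the mimic (0.77). NFKBIA, the best known feedback gene, was below that line in both groups, at 0.81 in the mimic and 0.93 in the control.

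Levels of different genes were compared per kilobase of transcript, with each transcript's value divided by its annotated length. The order of the mean over the 4 libraries was NFKBIA (1701 per kb), RELA (1091), NFKBIZ (989), BIRC3 (523), RELB (480), TNFAIP3 (410), NFKB1 (376), NFKB2 (243), NFKBIE (164) and REL (37.8). NFKBIA, at the top, and NFKB2, NFKBIE and REL, at the bottom, kept their places in all 4 libraries, and the other 6 changed places. REL was lowest in all 4, between 37.7 and 38.2 per kb, and NFKBIA was highest in all 4, between 1174 and 2333 per kb. RELA was above NFKBIZ in both number 1 libraries, at 868 in mimic 1 and 1081 in control 1 against 515 and 401 per kb, and below it in both number 2 libraries, at 1173 and 1244 against 1500 and 1540 per kb. RELB likewise passed NFKB1 and TNFAIP3 in number 2, with 713 per kb in mimic 2 and 815 in control 2, and was below both in number 1, with 179 in mimic 1 and 212 in control 1. BIRC3 owes its place to a short transcript, and neighbours from BIRC3 to NFKB1 did not differ beyond the spread between libraries.

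By transcript, 42 of the 64 rows of the members passed the filter, and none was called in the test over 58500 transcripts, where 0.0% were called and 922 had an unadjusted p under 0.05. In 20 of the 64 rows at least 1 library was at 0. Over the 4 libraries together, a single transcript carried most of the value of NFKBIA (NFKBIA-201, 91.1%), RELA (RELA-202, 89.6%), NFKBIZ (NFKBIZ-202, 88.0%), REL (REL-201, 82.6%) and RELB (RELB-207, 80.7%), and in each library it held at least 75.8% of its gene. RELB-207 stood at 286 and 1306 in mimic 1 and 2, against 388 and 1419 in control 1 and 2. NFKB2-201 had 75.5 and 588 in mimic 1 and 2, against 242 and 484 in control 1 and 2, while NFKB2-204, the next highest, was near level at 67.4 and 70.7 against 62.3 and 42.6. NFKB1 was divided among NFKB1-201, with 639 and 804 in mimic 1 and 2, against 524 and 1118 in control 1 and 2, NFKB1-202, with 352 and 419 against 244 and 596, and the third highest transcript of the gene, with 171 and 460 against 179 and 242. In mimic 2 that transcript was above NFKB1-202. The other second transcripts were minor. RELB-202 held 17.8% of RELB, REL-202 10.7% of REL, NFKBIZ-203 7.89% of NFKBIZ, RELA-205 4.47% of RELA and NFKBIA-209 3.34% of NFKBIA. Of the deposited transcripts of the members, 11 carry another version number than in GENCODE 29, so their lengths may differ.

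**Figure D4:**
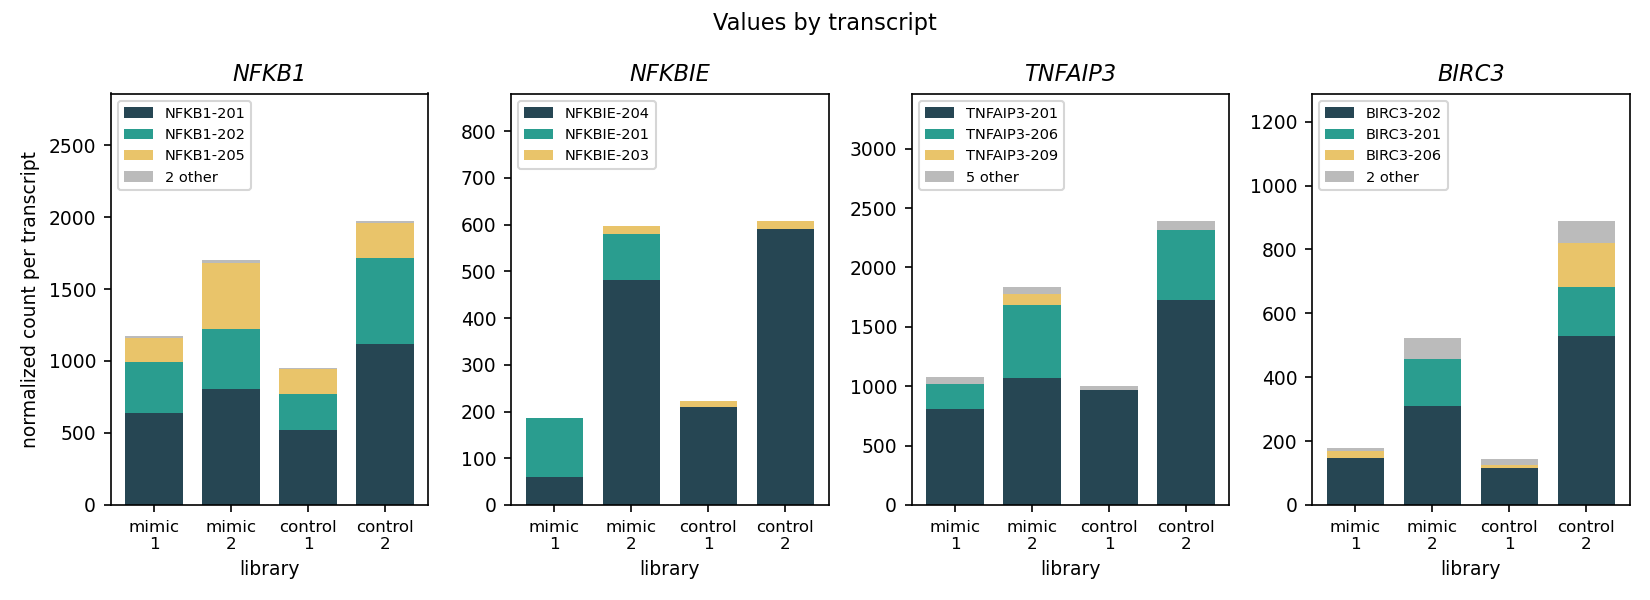
Normalized count by transcript for NFKB1, NFKBIE, TNFAIP3 and BIRC3, stacked, in mimic 1, mimic 2, control 1 and control 2. NFKBIE-201 is seen in the mimic bars and is at 1.04 and 0 in the controls, TNFAIP3-206 is missing from control 1, and BIRC3-202 is the largest block in every BIRC3 bar.

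The split among transcripts differed between libraries in several members, among them NFKBIE, TNFAIP3 and BIRC3, described next. NFKB2-201, given above, held 32.8% of NFKB2 in mimic 1 and 72.0% in mimic 2, against 72.1% and 66.6% in control 1 and 2. It shares 97.0% of its 31-base words with NFKB2-204, so part of its reads could belong to either. NFKB1-202 likewise shares 99.3% of its words with NFKB1-201. NFKBIE-201 had 127 and 97.4 in mimic 1 and 2, against 1.04 and 0 in control 1 and 2, and NFKBIE-204 had 59.4 and 482 against 209 and 592. NFKBIE-204 held 83.2% of NFKBIE over all libraries but 31.9% in mimic 1, where NFKBIE-201 held 68.1%. By limma NFKBIE-201 was the 1 member transcript with an unadjusted p under 0.05, and its adjusted p was 1.00. In GENCODE 29 both have 2581 bases with 0 mismatches, so reads could not tell them apart if the authors used these sequences, and their sum is the safer value. TNFAIP3-206 was listed at 0 in control 1 and had 206 and 613 in mimic 1 and 2 and 587 in control 2. It shares 99.5% of the 31-base words of TNFAIP3-201, the main transcript, which had 811 and 1070 in mimic 1 and 2, against 971 and 1728 in control 1 and 2.

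BIRC3 was unlike the other members in that most of its value did not come from protein-coding transcripts. These held 36.5% of the BIRC3 value and at least 83.9% of that of each other member. BIRC3-202, a processed transcript of 624 bases and 3 exons without an annotated coding sequence, had 146 and 310 in mimic 1 and 2, against 115 and 529 in control 1 and 2. The coding transcript BIRC3-201 had 147 in mimic 2 and 155 in control 2 and was listed at 0 in both number 1 libraries. Other coding transcripts were not at 0 there. BIRC3-206 had 22.5 and 0 in mimic 1 and 2, against 10.4 and 136 in control 1 and 2. BIRC3-203 had 9.01 and 27.6 against 16.6 and 69.5. BIRC3-202 shares 71.7% of its 31-base words with BIRC3-201, so part of its reads could belong to either. With protein-coding transcripts alone, the log2 difference of BIRC3 between numbers was 3.20 in place of 2.10.

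The rest of the pathway was read from lists of the other IkB proteins, kinases, adaptors, receptors, ligands and targets. Of 83 such genes 75 had a row and 73 were tested, and 0 passed in the mimic comparison in either direction with limma, with 0 at an unadjusted p under 0.05. The median log2 fold change of the 73 was -0.07, against -0.14 for the members and -0.01 for all genes. The smallest p-values of the lists belonged to NFKBID (-0.37), IKBKG (-0.22), ITCH (0.29), NGFR (-0.50), TNFSF14 (-0.57) and GADD45B (-0.44). Between numbers, 23 of the 73 were over 2-fold higher in number 2 and 4 were over 2-fold lower, against 9.39% and 9.92% of all genes.

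**Figure D5:**
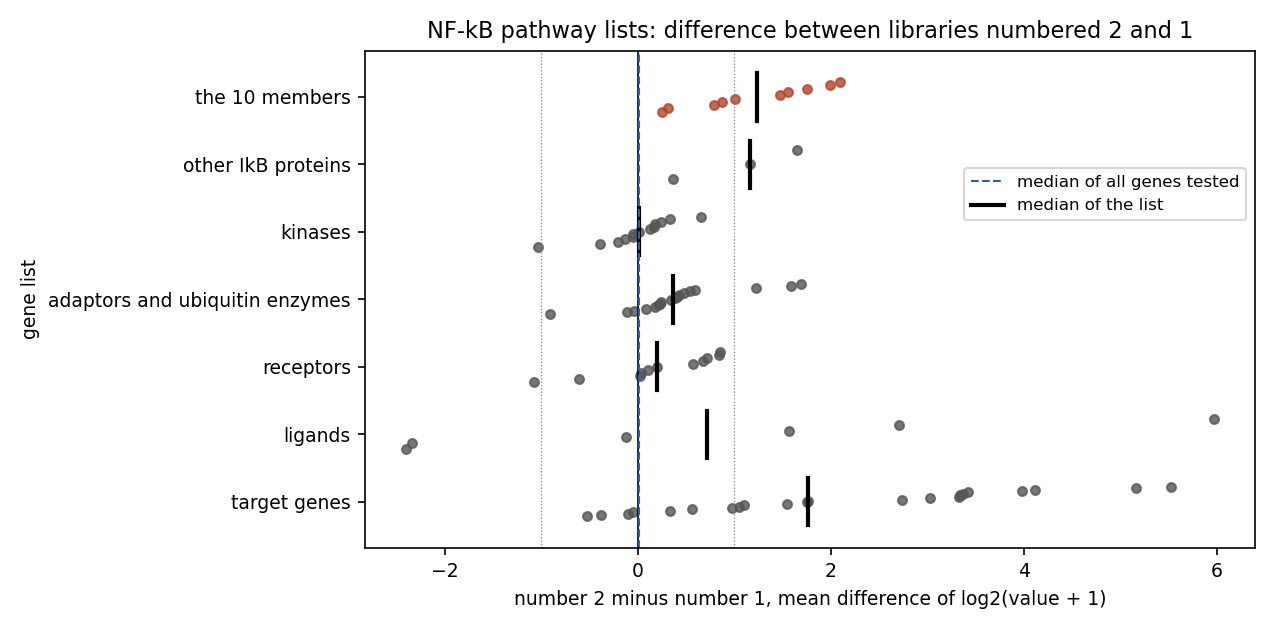
Log2 difference between libraries numbered 2 and 1, averaged over mimic and control, for each tested gene (points) of the 10 members and of 6 pathway lists, with list medians as black bars, the median of all genes as a dashed line and 2-fold as dotted lines. Points of the members and of the target genes lie mostly to the right, and those of the kinases centre on 0.

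Of the other IkB genes, 2 of 3 were over 2-fold higher in number 2. BCL3, a nuclear IkB protein, had 422 and 1439 in mimic 1 and 2, against 525 and 1528 in control 1 and 2, and NFKBIB, a cytoplasmic one, had 286 and 680 against 324 and 685. The adaptor gene TRAF1 had a log2 difference of 1.69 between numbers, RBCK1, a subunit of the linear ubiquitin ligase, 1.59 and MYD88, the adaptor of interleukin 1 receptors, 1.23. These 3 were over 2-fold higher, out of 18 adaptors and ubiquitin enzymes, whose median was 0.36. The kinases had a median of 0.01, and none of the 13 was over 2-fold higher. IKBKE was lower at -1.04 and TBK1, a related kinase, at -0.39, while the IKK catalytic gene IKBKB was at 0.66. Of the receptors TNFRSF11A was at -1.08, TNFRSF1B at 0.85 and TLR4 at 0.84.

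The largest single differences of the pathway lists were among ligands and targets. IL1A, an activating ligand, had 79.2 and 4170 in mimic 1 and 2, against 66.5 and 5115 in control 1 and 2, a log2 difference between numbers of 5.97. IL1B, a further ligand of the same receptor, was at 2.71, and the alarmin gene IL33 went the other way at -2.40. Of 22 target genes, 15 were over 2-fold higher in number 2 and 0 over 2-fold lower, with a median of 1.76 and the largest values at IL6 (5.52), CXCL8 (5.16) and CXCL2 (4.12). Among genes with a promoter window, the NF-kB consensus was present in 9 of 20 target genes, which were listed as NF-kB targets. It was present in 3 of 3 other IkB genes, 3 of 9 ligands and 3 of 16 adaptors and ubiquitin enzymes. For kinases it was 1 of 12 and for receptors 0 of 9. Whether the consensus has a part in the difference between numbers was not tested. Among the 992 genes with a window that were over 2-fold higher in number 2, 12.3% held it, against 8.90% of all tested genes with a window and 7 of 8 members.

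The genes whose profile over the 4 libraries came closest to the 3 members with the largest difference between numbers were sought among 11017 protein-coding genes, as the distance between centred log2 values. Nearest to RELB were KDM6B (0.13), MKNK2 (0.15), BAMBI (0.17) and PSG2 (0.19). KDM6B had 418 and 1907 in mimic 1 and 2, against 510 and 2020 in control 1 and 2. Nearest to NFKBIZ were TTC39B (0.05), HSPBAP1 (0.08), NTN4 (0.09) and APOL6 (0.13), and no gene came as close to BIRC3, where the best were MMP1 (0.33), SPINK1 (0.37), PRR9 (0.38) and ABI3BP (0.38). With 4 libraries these distances reflect mainly the difference between numbers.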

How the data were processed

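RNA of 4 libraries was poly(A)-selected and sequenced in pairs with a strand-keeping kit, per the labels' protocols. For each Ensembl transcript the deposited file holds 1 normalized signal per library. Kallisto, DESeq2 and hg38 are named in the submitters' processing notes, and the annotation release is not given in the sources used here. The values behave as counts divided by a factor that is nearly, but not exactly, constant within a library. Among low values, 95.6% to 99.7% per library came out as whole reads within 0.1 of a read. Dividing by the value of 1 read gave the reads used for edgeR and DESeq2. Without a replicate block these called 0 genes each, and with it edgeR called 91. The value of 1 read varies slightly between transcripts, so reads of high transcripts are approximate. The lowest row sum was 10 reads, and transcripts below that were not analysed here.

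Of 100809 transcripts, 90643 (89.9%) matched GENCODE 29 by identifier without version, while the others, with 3.25% to 3.56% of the summed values, were not used. Values were summed per gene, with symbols from a gene name table. Genes averaging 10 or more entered limma's two-sided moderated test (trend option) on log2(value + 1), adjusted by Benjamini-Hochberg over all of them at 0.05, and the same for single transcripts. A fold change on this scale understates the change of low genes. Numbers were compared by the mean of the log2 differences within each group, with a log2 difference of 1 as 2-fold. Reads shared by overlapping transcripts are split by estimate. The limma and edgeR fits across genes were also run on simulated counts, with and without a difference between numbers. A pass was required only of limma without that difference, so it does not show recovery where the difference is present.

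All 10 members are named. Of each pathway list the rule names the 3 genes with the largest difference between numbers and the 1 with the smallest p, and of each of 3 members the 4 nearest protein-coding genes with a mean of at least 100. The text also names some transcripts and markers chosen after their values were seen. The members, lists and tests were chosen with earlier results of these data known. Alternatives were other pseudocounts, filters and scalings, edgeR, DESeq2, replicate number as a block, protein-coding transcripts only, and each library left out. Fits ran in R 4.3.3 (DESeq2 1.42.0, limma 3.58.1, edgeR 4.0.16), and tables and plots were made in Python 3.11.15 (matplotlib 3.10.9, pandas 2.3.3, numpy 2.4.6).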

Additional observations from a re-analysis of the deposited data

How the results depend on the processing

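No member was called under any alternative run, and the count of genes called was 0 in all but the fits with a replicate block, where limma called 117 genes and edgeR 91, none of them a member or a gene of the pathway lists. Deviations from the group means correlated between libraries of the same number, at r = 0.745 over all tested genes. Since no label explains the number and there are only 2 pairs, a pairing is not established by the labels, and the block is given as an alternative. Without the block, standard errors and p-values take in the difference between numbers that both groups share. With the block the adjusted p of the members ran from 0.593 (RELA, limma) to 1.00. NFKB1 had 0.04 in the limma fit, against -0.022 with DESeq2 and -0.021 with edgeR, and no other member changed sign outside the fits with a library left out. In those fits the groups held unequal numbers, and the log2 fold change ran from -0.48 to 0.57 for NFKB1, from -1.10 to 0.72 for NFKB2, from -0.22 to 0.050 for REL, from -0.46 to -0.0066 for RELA, from -1.31 to 0.76 for RELB, from -0.58 to 0.34 for NFKBIA, from -0.98 to 0.70 for NFKBIE, from -0.79 to 1.14 for NFKBIZ, from -0.77 to 0.48 for TNFAIP3 and from -1.54 to 1.09 for BIRC3. The number of members over 2-fold higher in number 2 was 6 under the other pseudocounts, filters, TMM factors and protein-coding transcripts, 5 when scaled to CPM, 5 within the mimic and 7 within the control. The 2 libraries per group and the gap between numbers limit what the mimic comparison can detect. Its standard errors of 0.25 to 1.07 on the log2 scale leave differences of the size seen here not detectable.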
